A study of Homo sapiens with 3 samples.

Results

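The B-cell receptor signalling genes CD79A, CD79B, LYN, BLK, SYK, BLNK and PLCG2 were examined in maps of an acetyltransferase and of the histone mark it can write. The members were all intervals of 2 deposited peak lists that overlap one of these 7 gene bodies on the human genome build hg19, each extended by 20 kb on either side. The low side of the BLK window was carried further, to position 11260000. This rule used positions alone and no measured value, although it was set with earlier results of these data known. It gave 92 of 215598 CREBBP peaks and 44 of 18263 H3K27ac regions, in windows that add up to 918 kb. The data are chromatin immunoprecipitation followed by sequencing (ChIP-seq) in the human cell line SC1, labelled as DLBCL (diffuse large B-cell lymphoma) and kept in serum-containing medium. The 3 samples are a ChIP against CREBBP, a ChIP against histone H3 acetylated at lysine 27 (H3K27ac), and an input taken with no antibody, for which no peak list was analysed here. The labels give no treatment or genotype, although every interval name in both lists carries "DMSO" and "rep2". With 1 library per antibody there is no replicate error, so values below are descriptions of these libraries and no difference between cultures was tested.

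The B-cell receptor is a membrane immunoglobulin held in a complex with CD79A and CD79B, the chains that carry the signal inward. After antigen binding, SRC-family kinases such as LYN and BLK phosphorylate tyrosine motifs in the CD79 tails, the kinase SYK docks there, and SYK then phosphorylates the adaptor BLNK. BLNK brings the phospholipase PLCG2 to the membrane, where it makes the second messengers that release calcium and turn on protein kinase C. CREBBP is a lysine acetyltransferase recruited by transcription factors, and H3K27ac marks active promoters and enhancers.

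RefSeq promoter sequences (build GRCh38.p14, 250 bases before to 50 after an annotated start) were at hand for 4 of the genes, and 3 are shown, for the genes whose start region held a CREBBP peak. That of PLCG2 belongs to a longer gene model and is not shown. The CD79A stretch is chr19:41877029-41877328 on the plus strand. The SYK stretch is chr9:90801569-90801868 on the plus strand, 1 of 3 annotated SYK starts, chosen after its motif matches were seen. The BLNK stretch is chr10:96271520-96271819 on the minus strand. These positions are on another build than the peaks, so whether each base lies under a peak was not determined. Whether the starts of these stretches are those used for the peaks was not determined either. Capitals mark matches to any of the motifs searched.
CD79A: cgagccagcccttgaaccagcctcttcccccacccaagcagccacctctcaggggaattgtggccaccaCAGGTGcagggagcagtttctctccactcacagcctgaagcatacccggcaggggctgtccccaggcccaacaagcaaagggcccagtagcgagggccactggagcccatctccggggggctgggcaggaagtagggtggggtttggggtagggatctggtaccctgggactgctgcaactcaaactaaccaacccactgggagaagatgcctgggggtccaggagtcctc
SYK: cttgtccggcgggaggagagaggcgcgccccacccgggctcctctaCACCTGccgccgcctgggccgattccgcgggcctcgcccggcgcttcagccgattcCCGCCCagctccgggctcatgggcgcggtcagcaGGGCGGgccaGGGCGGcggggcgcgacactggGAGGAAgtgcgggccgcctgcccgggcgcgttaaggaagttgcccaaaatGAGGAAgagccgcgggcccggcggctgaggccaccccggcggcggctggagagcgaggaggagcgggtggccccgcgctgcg
BLNK: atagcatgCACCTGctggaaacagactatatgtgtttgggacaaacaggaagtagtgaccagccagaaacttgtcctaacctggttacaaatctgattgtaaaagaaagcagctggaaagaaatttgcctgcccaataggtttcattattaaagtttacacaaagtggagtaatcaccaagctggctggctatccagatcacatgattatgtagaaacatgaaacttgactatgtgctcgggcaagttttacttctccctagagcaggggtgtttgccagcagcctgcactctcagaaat
The motifs, searched on both strands, were the EBF1 core CCCNNGGG, the ETS motif GAGGAA of the PU.1 type, the octamer ATGCAAAT, the cyclic AMP response element TGACGTCA, the GC box GGGCGG, the E-box CAGGTG and the TATA box TATAAA. The CD79A and BLNK stretches each held 1 match, an E-box, which 20.6% of all 35116 promoters in the table hold. The SYK stretch held 6 matches, namely 3 GC boxes, 2 ETS motifs and 1 E-box. The other SYK starts held 1 match each, with 19 CpG (66% G and C) at chr9:90801350-90801649 and 2 CpG (49%) at chr9:90827170-90827469. The first of these overlaps the stretch shown, and its match is the same E-box. A GC box occurs in 44.95% of all promoters, and the ETS motif in 27.9%. No exact match was found in these 3 stretches to the EBF1 core (19.1% of all promoters), the octamer (1.77%), the cyclic AMP response element (1.85%) or the TATA box (11.5%). Only exact matches to the letters given were counted. Sites that differ from them were missed, so the search does not show that a factor has no site here. The SYK stretch shown had 40 CpG and 76.7% G and C. The CD79A stretch had 4 CpG and 63.0% G and C, and the BLNK stretch 1 CpG and 42.7%. The median over all promoters was 14 CpG and 58.7% G and C.

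All 7 genes carried an H3K27ac region that spanned the gene start used here. In 5 of them a CREBBP peak also lay within 1 kb of the start. How many of all gene starts carry either was not determined, so these counts show nothing particular to the 7 genes. Of the 5 start peaks, those of CD79B and SYK had a q of at most 0.05, and those of LYN and BLK a −log10 q of 0. In CD79A, CD79B and SYK the CREBBP summit was almost on the start, at -0.018, -0.066 and -0.090 kb, where negative distances lie upstream in the direction of transcription. In LYN and BLK the nearest summit was at -0.575 and -0.628 kb. BLNK had its nearest summit at -1.71 kb, still within the H3K27ac region over its start. PLCG2 was the exception, with its nearest CREBBP summit 19.9 kb downstream of the start. In 6 of the 7 genes the nearest summit was thus upstream of the start. The starts of CD79A and CD79B, whose products define the B lineage, carried the mark as did those of the other genes. When H3K27ac was limited to its upper 50% by q, 5 of the 7 starts had one, and those of BLK and SYK did not. Gene starts follow the positions that define the members, and other transcripts of the same gene may start elsewhere. The RefSeq gene model of CD79A is 4.094 kb long, against 4.25 kb here, and that of BLNK 82.4 kb, against 79.9 kb. The shortest distances above may therefore not hold for a RefSeq start.

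**Figure D1:**
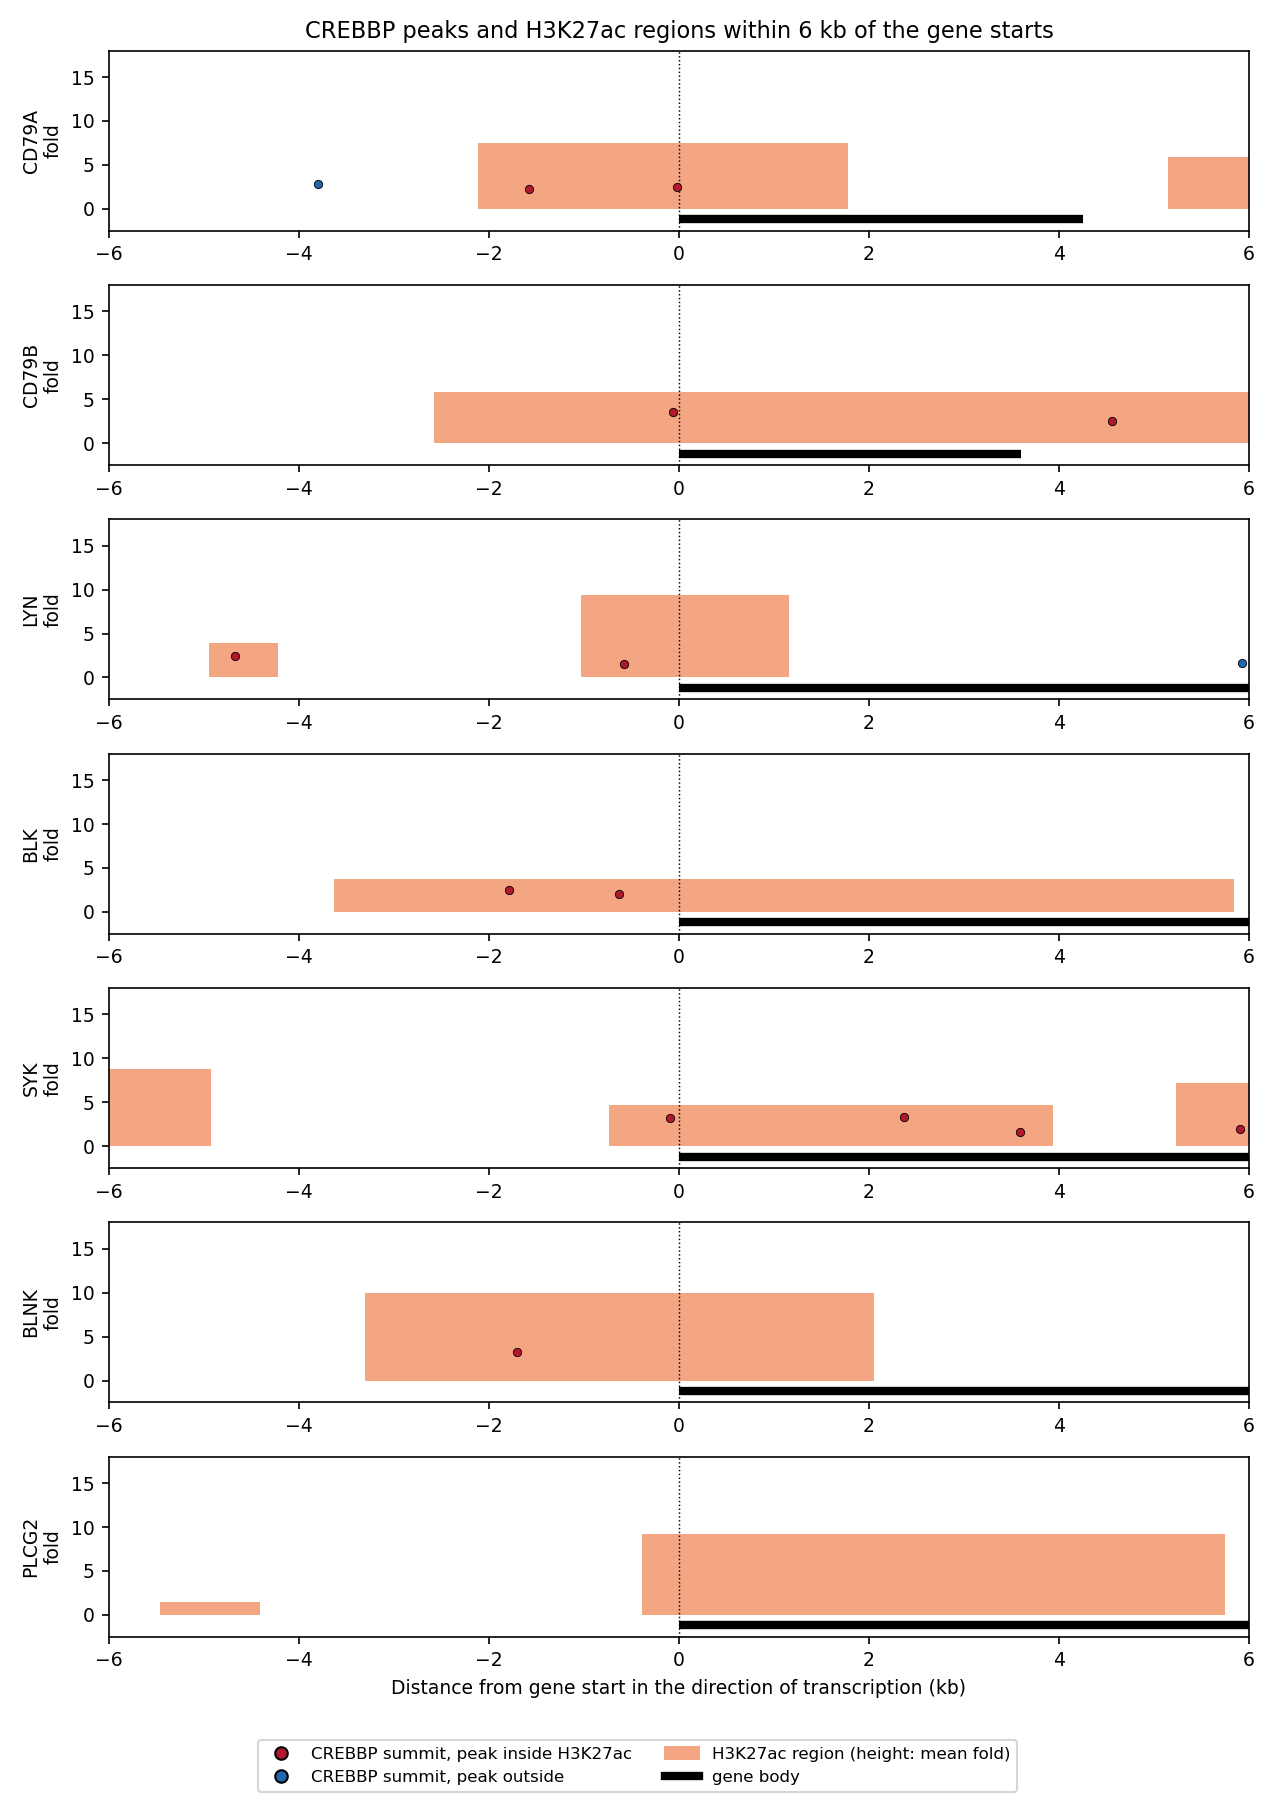
CREBBP summits (points; height is the authors' fold at the summit) and H3K27ac regions (bars; height is the authors' mean fold) within 6 kb of each gene start, on a linear axis of distance in kb along the direction of transcription; the black bar is the gene body. A region spans all 7 starts, and a CREBBP summit stands within 1 kb of 5 of them.

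The H3K27ac regions over the starts were 2191 to 15514 bp wide. Their fold enrichment, the authors' ratio of ChIP signal to expected background averaged over the region, was highest at BLNK, with 10.0, followed by LYN with 9.39, PLCG2 with 9.17 and CD79A with 7.47. CD79B with 5.84, SYK with 4.70 and BLK with 3.77 were lower. With no replicates, it is not known which neighbours in this order differ. The regions reached -0.392 kb upstream at PLCG2 and -3.64 kb at BLK. On the gene side they ended between 1.16 kb at LYN and 12.9 kb at CD79B.

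CD79A (chromosome 19 from 42381190 to 42385439) encodes Ig-alpha. Its window held 4 H3K27ac regions and 5 CREBBP peaks, 4 of which lay inside a region (at least 1 bp shared). The region over the start, from 42379070 to 42382970, was 3901 bp wide with a fold of 7.47. The CREBBP peak on the start, from 42380959 to 42381345, had a fold of 2.44. A fold and its p together give the number of fragments and the background at the summit, if the caller counted whole fragments against a Poisson background. For this peak they were 24 fragments over a background of 9.24. A second peak inside the same region, with its summit at -1.58 kb, had a fold of 2.22. The largest fold in the window, 2.85, belonged to the 1 peak outside any region, at -3.80 kb, and the most fragments, 38, to a peak at -17.4 kb in a region of fold 3.39. That background was also the highest among the members, 18.5. The region downstream of the gene, at 5.15 to 7.82 kb, had a fold of 5.93 and 1 CREBBP peak. The region at 10.1 to 10.8 kb had a fold of 4.28 and no CREBBP peak. No CREBBP peak of the CD79A window had a q (p adjusted for the number of tests) of at most 0.05. RPS19 and ARHGEF1 flank CD79A in the RefSeq gene order, and regions outside the gene bodies were not assigned to a gene.

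CD79B (chromosome 17 from 62006100 to 62009704) encodes Ig-beta. The whole 3.61 kb gene body lay under a single H3K27ac region of 15514 bp, from 61996773 to 62012286, with a fold of 5.84. It was the widest H3K27ac region in the 7 windows and ranked 38 by width in the whole list. All 4 CREBBP peaks of the window lay inside it, which was the largest number in any region of the 7 windows. The peak on the start, from 62009332 to 62010488, had a fold of 3.56, a −log10 q of 8.01 and 42 fragments over a background of 11.1, the most fragments of all 92 peaks. The other 3 peaks stood past the end of the gene, at 4.56, 6.50 and 9.20 kb from the start, with folds of 2.49, 2.62 and 2.42. The peak at 6.50 kb had a −log10 q of 1.29, just short of a q of 0.05. Both other H3K27ac regions of the window held no CREBBP peak. One of them, 846 bp from 61992581 to 61993426 on the side of the growth hormone gene GH1, had a fold of 43.1, which ranked 9 among all 18263 regions. The other, 2107 bp at -14.9 to -12.8 kb on the side of SCN4A, had a fold of 7.67. As background, the locus control region of the growth hormone genes, known from the pituitary, lies in and around SCN4A and CD79B.

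LYN (chromosome 8 from 56792386 to 56925006) encodes a SRC-family kinase that starts the signal and also phosphorylates inhibitory receptors. Its window, 173 kb long, had the most CREBBP peaks of the 7, 21, but only 6 of them lay in an H3K27ac region. Per 10 kb it held 1.22 peaks, below the 1.33 of the BLNK window. H3K27ac covered 5.11% of the gene body, the smallest share among the 7. The CREBBP peak at the start was broad, 1748 bp, with the lowest fold of all members, 1.58, and 24 fragments over a background of 14.8. The strongest peak by q of all 92 stood 111 kb into the gene, from 56903319 to 56904031. It had a fold of 4.40, a −log10 q of 10.7 and 40 fragments over a background of 8.31, within a region of 3566 bp and fold 8.88. Another strong peak stood near the end of the gene, from 56922669 to 56923561, 17.6 kb from any H3K27ac region. It had a fold of 4.09 and 19 fragments over 3.90. One more, at 46.4 kb, had a fold of 3.36 and lay 3.49 kb from a region. These last 2 were the only CREBBP peaks of q at most 0.05 outside H3K27ac in the 7 windows. The remaining peak of that strength, with a fold of 3.22, stood at -18.6 kb in a region of fold 4.41. The LYN window also held a region of 268 bp at 50.1 kb with a fold of 10.7 and no CREBBP peak.

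BLK (chromosome 8 from 11351521 to 11422108) encodes a SRC-family kinase found mainly in the B lineage. Its window, which includes the added low side, held 12 H3K27ac regions and 62.4 kb of H3K27ac. Within the 20 kb used for the other genes it held 5 regions and 24.7 kb, with 6 CREBBP peaks, and LYN and PLCG2 had 8 regions each. Of the 12 regions of the full BLK window, 9 lay wholly upstream of the gene. The widest was 10355 bp at -43.1 to -32.8 kb, with a fold of 4.86 and no CREBBP peak. The highest fold, 10.4, belonged to a region of 10070 bp at -79.8 to -69.8 kb, which held 1 CREBBP peak of fold 2.04. FAM167A is the next gene on that side in the RefSeq order. How far it reaches into this window was not determined, so intervals upstream of BLK were not assigned to either gene. CREBBP peaks numbered 13, of which 11 lay in an H3K27ac region. Folds ran from 1.61 to 2.83 with a median of 2.24, against 2.17 in the rest of the list. The largest belonged to a peak of 10 fragments at -87.8 kb, outside H3K27ac. Both peaks of q at most 0.05 were upstream of the start. The peak at -1.79 kb had a fold of 2.51 and 27 fragments over 10.2, inside the region over the start, and the peak at -27.1 kb had a fold of 2.49 and 26 fragments over 9.85. The start peak itself, at -0.628 kb, had a fold of 2.03 and a −log10 q of 0. Within the gene, H3K27ac regions stood at 37.6 to 45.5 kb and 47.0 to 53.4 kb, each with 1 CREBBP peak.

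SYK (chromosome 9 from 93564012 to 93660842) encodes the kinase that docks on the phosphorylated CD79 tails. All 13 CREBBP peaks of its window overlapped the gene body, and 9 lay in H3K27ac regions. The peak on the start, from 93563751 to 93564062, had a fold of 3.22, a −log10 q of 4.46 and 31 fragments over a background of 8.94. A second peak of q at most 0.05 stood in the same region at 2.37 kb, with a fold of 3.38 and 15 fragments over 3.73. That region was 4676 bp wide with a fold of 4.70. The H3K27ac region of the largest fold lay inside the gene, from 93588766 to 93594062, with a fold of 16.1 and a rank of 762 in the list. It held 3 CREBBP peaks, with folds of 2.26, 2.45 and 2.36, none of which reached a q of 0.05. A region of 8589 bp, the widest of the window, began 5.23 kb past the start and held 2 peaks. The only region without a CREBBP peak lay upstream, at -6.69 to -4.93 kb, with a fold of 8.82.

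BLNK (chromosome 10 from 97951455 to 98031344) encodes the adaptor between SYK and PLCG2. Its 4 H3K27ac regions had a median fold of 10.5, the highest median of the 7 windows, and 3 held a CREBBP peak of q at most 0.05. The region with the largest fold, 13.4, lay in the gene at 26.4 to 28.4 kb. It held the CREBBP peak of the largest fold among all 92, from 98004048 to 98004686, with a fold of 4.83 and 16 fragments over a background of 2.52. The next largest BLNK fold, 4.28, was at -16.3 kb, with 18 fragments over 3.44, in the widest region of the window, 6063 bp with a fold of 3.87. The peak nearest to the start, from 98032734 to 98033688, had 15 fragments over 4.01 and a fold of 3.19. A narrow region of 680 bp at 40.6 to 41.3 kb had a fold of 11.1 and no CREBBP peak. DNTT, which encodes the terminal transferase of antigen receptor rearrangement, is the next gene on the upstream side.

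PLCG2 (chromosome 16 from 81812863 to 81991899) encodes the phospholipase at the end of this chain. H3K27ac covered 48.1 kb of its 179 kb body, 26.9%, all of it in the first 86.5 kb. The region over the start, from 81812471 to 81818613, had a fold of 9.17, the highest of the window, and held no CREBBP peak. The widest region, 12532 bp at 46.9 to 59.4 kb, had a fold of 4.20 and held none either. The 8 CREBBP peaks inside H3K27ac lay in 4 regions between 16.5 and 64.0 kb. The largest fold was 3.08, at 19.9 kb, with 19 fragments over 5.50, and the most fragments, 20, were at 29.9 kb with a fold of 2.81. These were the 2 PLCG2 peaks with q of at most 0.05. The remaining 12 peaks lay outside H3K27ac, with folds from 1.74 to 2.82. The RefSeq gene model of PLCG2 is longer, 224 kb, so its annotated start is not the one used here.

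**Figure D2:**
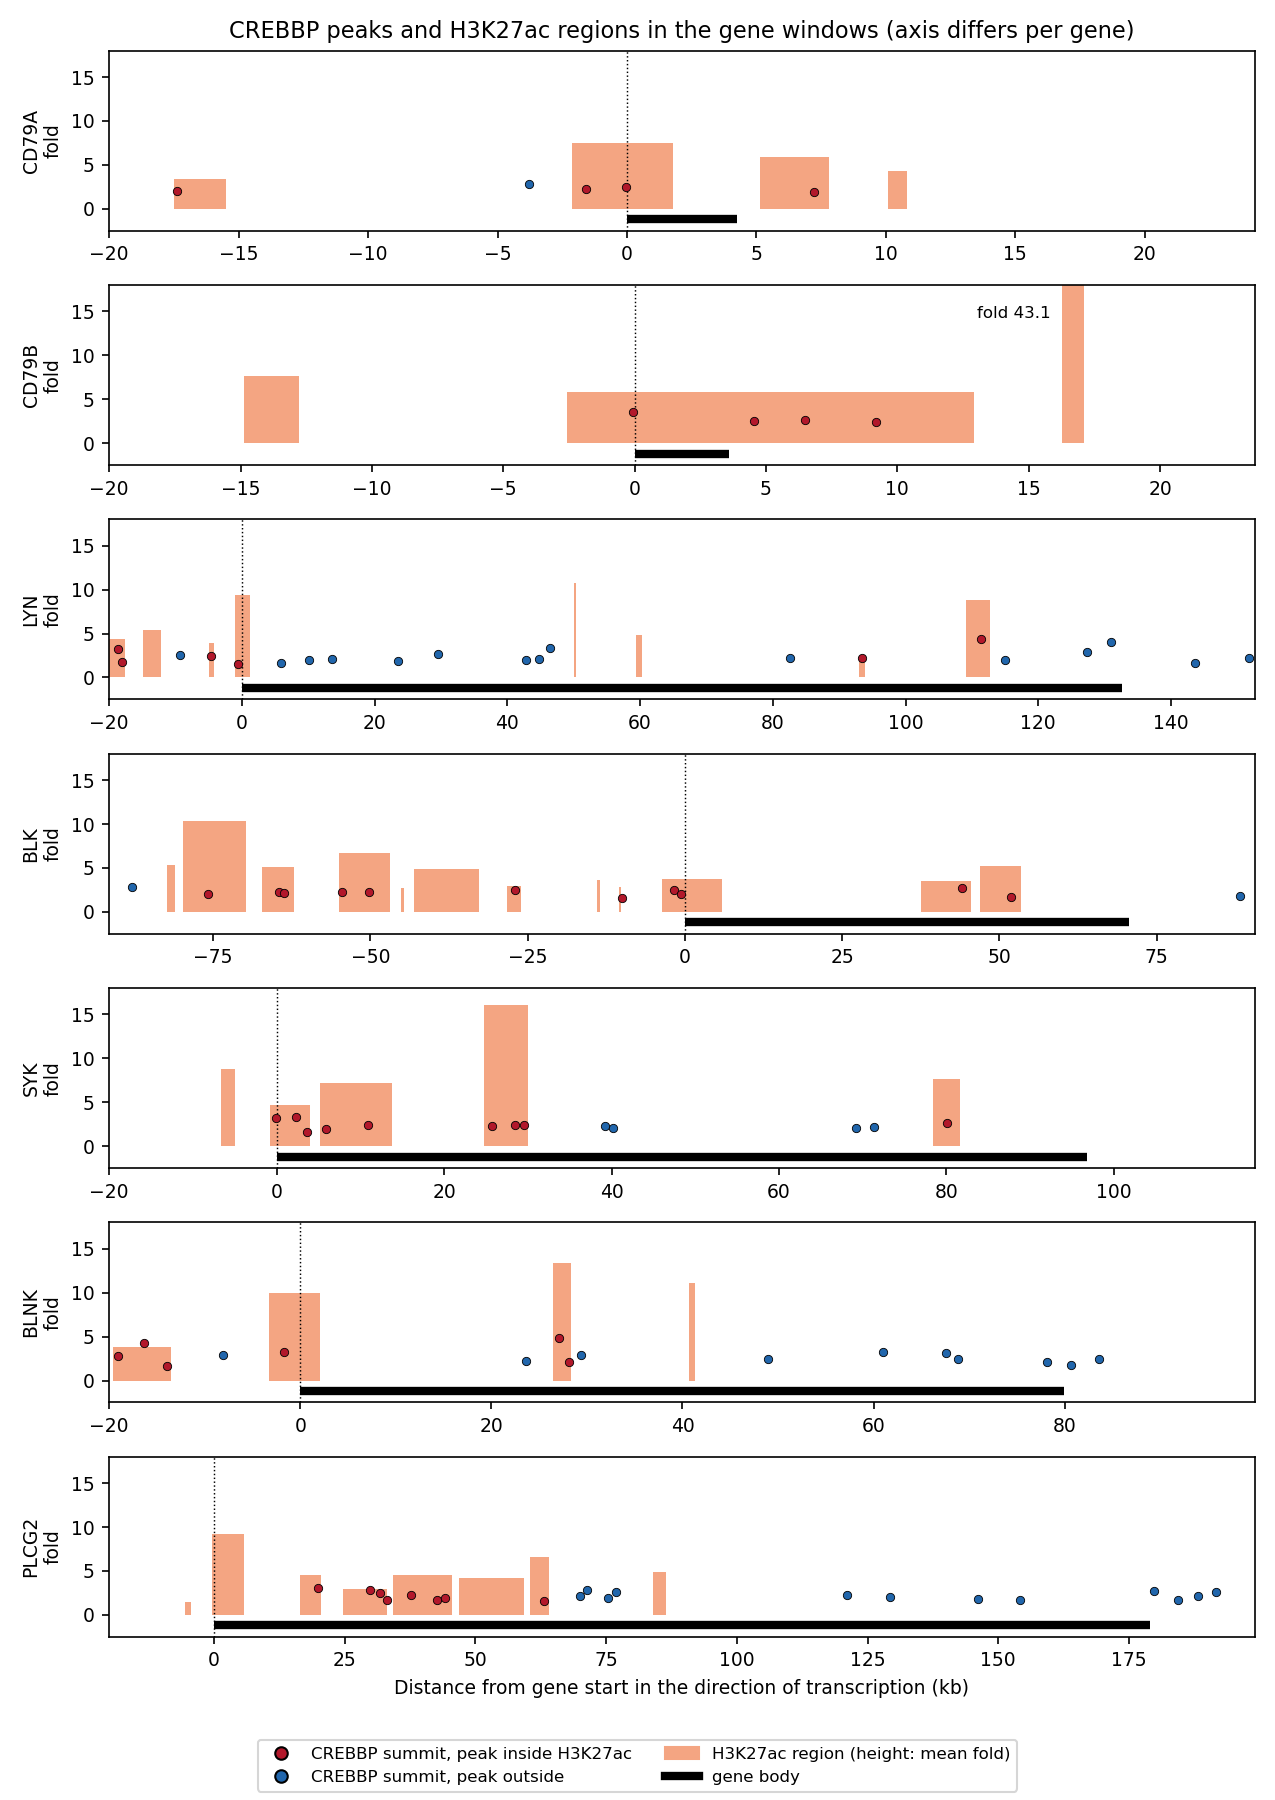
CREBBP summits (points) and H3K27ac regions (bars) across each gene window, against distance from the gene start in kb along the direction of transcription; heights are the authors' fold, the horizontal axis differs between genes, and the vertical axis ends at 18, so the CD79B region of fold 43.1 runs off the top. H3K27ac regions cluster in the first 86.5 kb of PLCG2, upstream of BLK and over all of CD79B, and LYN has many CREBBP peaks with no region.

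PLCG2, BLNK, LYN and BLK had CREBBP peaks past their last H3K27ac region. PLCG2 had 8 of them, with 3 to 7 fragments and folds of 1.74 to 2.69, and 7 had a −log10 q of 0. BLNK had 7, with 4 to 9 fragments and folds of 1.76 to 3.27. LYN had 5, with 7 to 19 fragments, and 1 of these, the peak of fold 4.09, had a q of at most 0.05. BLK had 1, and CD79A, CD79B and SYK had 0. Backgrounds at these peaks ran from 1.304 to 3.94 fragments.

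Over the 7 windows together, 48 of 92 CREBBP peaks lay in an H3K27ac region, 52.2% (exact Clopper-Pearson 95% interval 41.5 to 62.7%), against 5.06% of the whole list. The share was 100% in CD79B, 84.6% in BLK, 80% in CD79A and 69.2% in SYK. It was lower in PLCG2 with 40%, BLNK with 37.5% and LYN with 28.6%. Of the 92 peaks, 14 had a q of at most 0.05, 15.2% (8.58 to 24.2%), against 1.81% of the whole list, and 12 of these 14 lay inside H3K27ac, 85.7% (57.2 to 98.2%), against 56.5% of all peaks of that strength. They were spread over 6 genes, namely 4 peaks in LYN, 3 in BLNK, 2 each in BLK, SYK and PLCG2 and 1 in CD79B. Neighbouring peaks are not independent, so the intervals cover counting error only.

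H3K27ac covered 20.8% of the windows and 1.12% of the chromosomes up to their last interval, and the part of this difference in the shares was not tested. Fragment numbers moved with the shares as well. Member peaks had a median of 11 fragments (interquartile range 8 to 16) and of 4.02 for the background, against 5 fragments (4 to 6) and 1.304 in the rest of the list. Median folds were close, 2.26 in the windows and 2.17 in the rest of the list. Among peaks of 11 to 20 fragments, 31 of 38 in the windows lay inside H3K27ac, 81.6% (65.7 to 92.3%), against 62.5% in the rest of the list. Among those of 6 to 10 fragments it was 6 of 31, 19.4% (7.45 to 37.5%), against 3.87%. With 21 or more fragments, 11 of 11 member peaks lay inside (71.5 to 100%), against 88.3% in the rest of the list. With 5 or fewer it was 0 of 12 (0 to 26.5%), against 0.209%. In both of these classes the share in the rest of the list lies within the interval of the members. The intervals take neighbouring peaks as independent, so they do not tell which classes differ. No test of these differences was made.

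**Figure D3:**
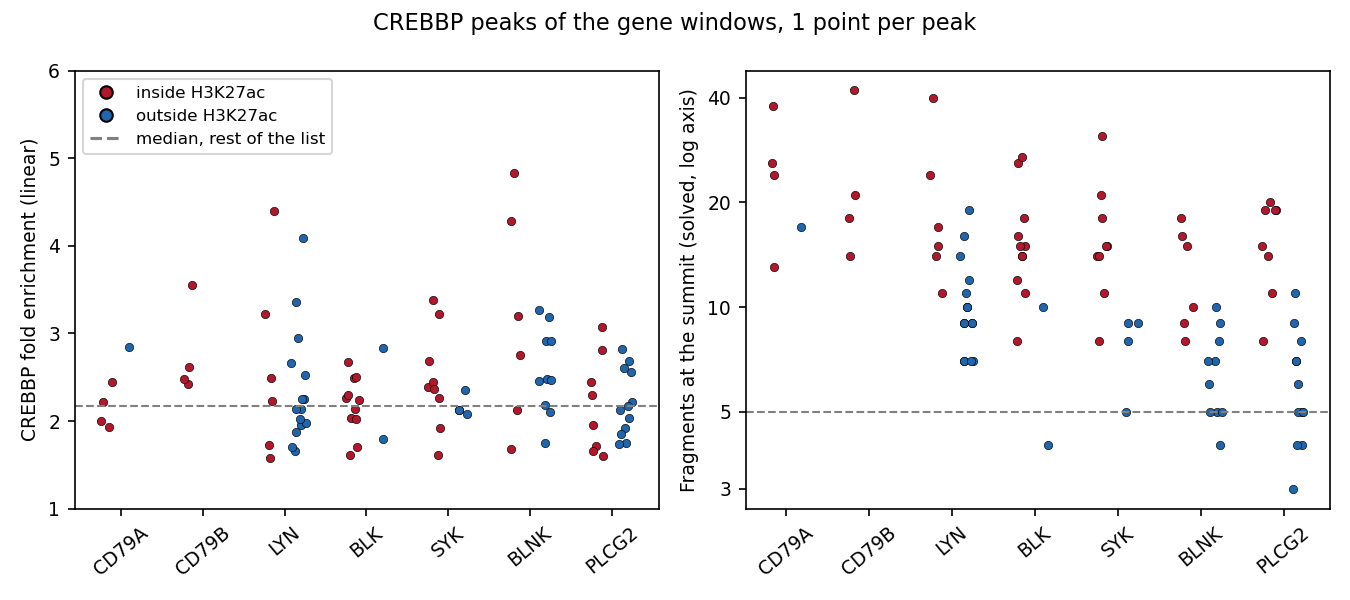
Each point is 1 of the 92 CREBBP peaks, by gene, with peaks inside H3K27ac in red and those outside in blue; the left panel gives the authors' fold and the right panel the solved fragments at the summit on a log axis, and the dashed line is the median of the rest of the list. Folds inside and outside overlap in all genes that have several of both, while fragment numbers are mostly higher inside.

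The contrast between fold and fragments held within the windows. Peaks inside H3K27ac had a median of 15 fragments over a background of 5.96 and a median fold of 2.33, and peaks outside had 7.5 fragments over 2.74 and a fold of 2.20. In the rest of the list the medians were 16 fragments inside and 5 outside.

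Seen from the mark, a CREBBP peak was found in 28 of the 44 regions, 63.6% (47.8 to 77.6%), against 49.0% of the whole list. A CREBBP peak of q at most 0.05 lay in 11 of them, 25% (13.2 to 40.3%), against 11.4%. The regions of these genes were wide. Their median width was 3069 bp, with quartiles at 1239 and 6216 bp. In the rest of the list it was 1422 bp, with quartiles at 919 and 2149 bp. In width, 20 of 44 were among the widest 10% of the list, against 10.0% of all regions. Their median fold, 5.18, was close to the 4.92 of the rest. The 28 regions with a CREBBP peak had a median width of 4362 bp and the 16 without had 1175 bp, while their median folds were 5.18 and 5.15. Regions with a peak were also wider in the rest of the list, with medians of 1769.5 bp with and 1160 bp without. Regions with more CREBBP peaks were wider. Those with 1 peak had a median width of 3176 bp, those with 2 had 5023 bp and those with 3 had 6063 bp. The part of length itself in this was not tested. The exceptions were wide regions with no CREBBP peak, in PLCG2 (12532 and 6143 bp) and upstream of BLK (10355 bp).

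**Figure D4:**
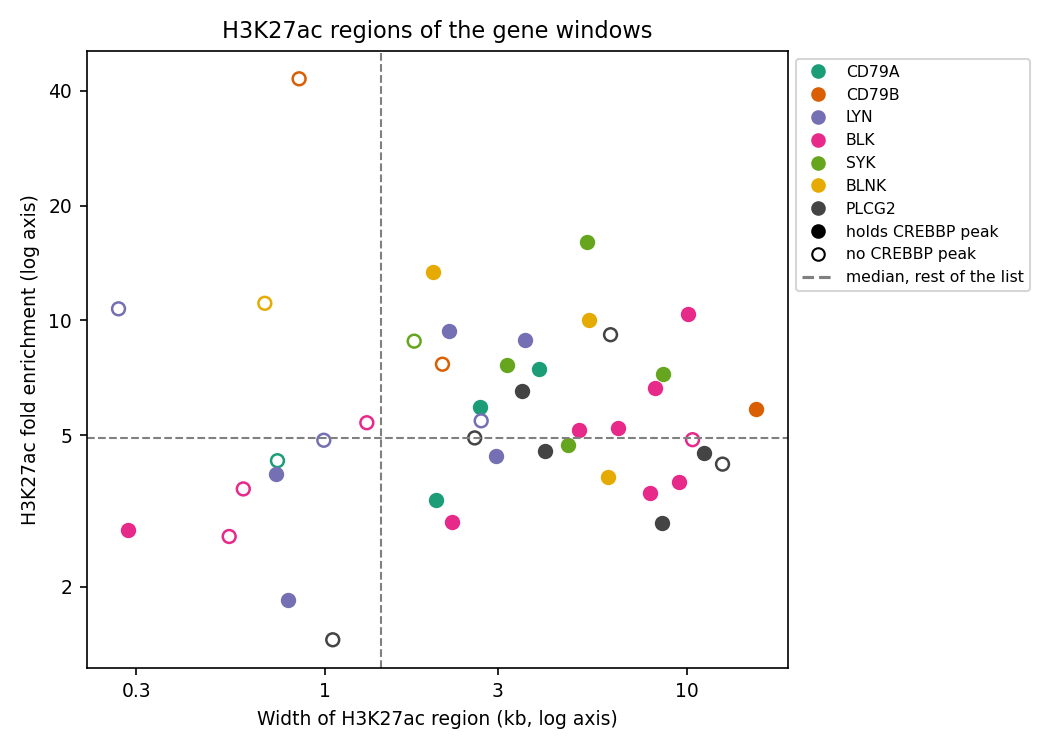
Width in kb and authors' fold of the 44 H3K27ac regions, both on log axes, coloured by gene, with filled points for regions that hold a CREBBP peak, open points for those without, and dashed lines at the medians of the rest of the list. The filled points lie mostly to the right of the width median, and the open point at the top is the CD79B region of fold 43.1.

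Joining neighbouring regions at the stitching distance that the super-enhancer caller ROSE uses by default gave 13232 H3K27ac domains in the whole list, and the domain over the start was among the top 5% by covered length (at least 8.03 kb) for 6 of the 7 genes, against 5.003% of all domains. This measure was added after seeing the data. The BLK domain covered 48.0 kb in 10 regions and ranked 3, and the PLCG2 domain covered 46.9 kb in 7 regions and ranked 4. Of the 10 regions of the BLK domain, 9 lay wholly upstream of the gene and were not assigned to BLK or FAM167A. Only the region over the start, 9481 bp wide, touched BLK. SYK ranked 69 with 20.3 kb, CD79B ranked 71 with 20.2 kb in a domain that reaches past the window, BLNK ranked 346 with 11.4 kb and LYN ranked 585 with 8.58 kb. CD79A was outside the top 5%, with 7.31 kb and a rank of 793. The BLK and PLCG2 domains held 9 and 8 CREBBP peaks in their regions, 2 of each with a q of at most 0.05. Domains over gene starts were not set against those elsewhere, so these ranks describe the domains and show nothing particular to the genes.

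**Figure D5:**
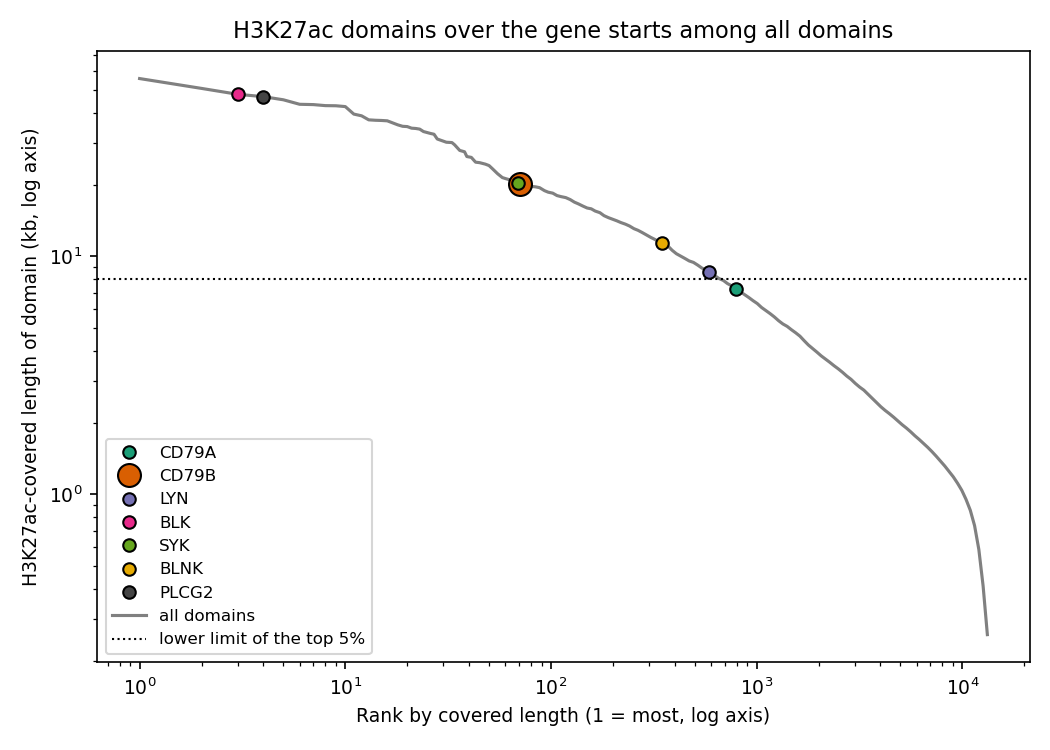
H3K27ac-covered length in kb of each joined domain against its rank among all 13232, both on log axes; the grey line is all domains, the points are the domains over the 7 gene starts, and the dotted line is the lower limit of the top 5%. BLK and PLCG2 stand at ranks 3 and 4, SYK and CD79B nearly coincide at 69 and 71, and only CD79A falls below the line. Most of the covered length of the BLK domain lies upstream of the gene.

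The limit of 20 kb left out intervals close to it. The nearest CREBBP peaks beyond a window edge lay 0.932 to 41.8 kb outside, with folds of 1.86 to 2.88, and the members nearest to an edge had folds of 1.79 to 3.56. The nearest H3K27ac regions beyond an edge lay 1.38 to 443 kb outside, with folds of 1.61 to 31.8, against 1.45 to 43.1 for the members nearest to an edge. The value of 31.8 belonged to a region of chromosome 17 from 61926160 to 61926618, 59.5 kb below the CD79B window. On the far side of SYK the next H3K27ac region was 443 kb away, the longest such gap.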

How the data were processed

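ChIP-seq peak lists of 2 libraries of the SC1 cell line were used, 1 for CREBBP and 1 for H3K27ac. The build hg19 and the tools MACS2, Bowtie2, STAR and fastp stand in the submitters' processing notes. Versions, settings, the control library and any pooling: not given in the sources used here. The authors deposited for each interval a score, a fold (ratio of signal over background), a −log10 p-value and a −log10 q-value. In the CREBBP list the deposited narrow-peak format gives the fold at the summit, and in the broad H3K27ac list it is taken as a mean over the region. The score was not used for any result. These are the authors' values and serve to describe and rank intervals within a list.

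Intervals on the Y chromosome were left out, 128 for CREBBP and 17 for H3K27ac. Gene positions on hg19 come with the definition of the members. Strand was read from the RefSeq promoter table for CD79A, SYK, BLNK and PLCG2 and taken from general knowledge for CD79B, LYN and BLK. RefSeq tables (GRCh38.p14) gave promoter sequences and gene order only, and other genes of the pathway were not analysed here. Library depth is unknown. Fragments n and background b at a CREBBP summit were solved from fold = (n + 1)/(b + 1) and the Poisson tail above n. A whole n met the deposited −log10 p within 0.001 for 215580 peaks (99.99%) and for all 92 members. These solved numbers are inferences. Overlap meant at least 1 shared bp. All 7 genes were named, each with the regions over its start, its widest and highest-fold region, its CREBBP peaks of q at most 0.05, of the largest fold, of the most fragments and nearest to the start. Other intervals named were picked after their values were seen. The members, lists and thresholds were chosen with earlier results of these data known. Overlap and solving were tested on simulated data. Python 3.11.15, numpy 2.4.6, pandas 2.3.3, scipy 1.17.1 and matplotlib 3.10.9 were used.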

Additional observations from a re-analysis of the deposited data

How the results depend on the processing

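With 1 library per antibody, no value has a replicate error, and library depth is unknown. A −log10 q of 0 was deposited for 43 of the 92 member peaks, 46.7%, against 80.7% of the whole CREBBP list. Of the values recomputed under alternatives, 22 stayed close to the main value (counts within 1.5 times, shares within the main 95% interval) and 8 moved. With only CREBBP peaks of q at most 0.05, the windows held 14 peaks in place of 92, 85.7% of them lay inside H3K27ac, 25% of the regions held one, and 2 genes, CD79B and SYK, kept a CREBBP peak at the start in place of 5. When H3K27ac was limited to its upper 50% by q, the windows held 24 regions in place of 44, and 31.5% of CREBBP peaks lay inside. Under that limit 5 genes in place of 7 had a region at the start, which counts among the values that stayed close. The gene bodies alone held 57 CREBBP peaks and 24 regions. Fewer intervals enter each of these by construction. A 50% overlap, the summit alone, an extension of 50 kb and start windows of 500 bp or 2.5 kb left their values close to the main ones. Joining within 5 kb left 5 genes in wide domains and the top 10% of domains held all 7. With the low side of BLK at 20 kb the windows held 85 peaks, 49.4% of them inside, and 37 regions, 64.9% of them with a peak. The domain and BLK alternatives were added after seeing the data. No paired analysis was possible because no group has replicates.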
